A study of Mus musculus with 9 samples.

Results

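The genes of cholesterol synthesis and sterol regulation were followed in RNA from mouse pancreatic islets. Of 28 genes named by symbol (enzymes of the mevalonate and sterol pathways, their sterol-sensing regulators and intracellular sterol carriers), 27 were rows of the table of 23329 genes, and all 27 passed the filter on low counts. The 28th, Msmo1, has no row under that symbol. Male mice gave 5 libraries titled as mutants, with the genotype Pdx1A4, and 4 titled as controls, with the genotype Pdx1+/-. The labels neither explain the Pdx1A4 allele nor give an age. They also leave unsaid whether each library is a different mouse, and p-values here measure spread among libraries that could be technical. Pdx1 encodes a homeodomain transcription factor needed for pancreas formation and beta cell function, and both genotypes are labelled with a Pdx1 allele other than plain wild type. The labels list serum-containing media for islets and for cells of the whole project.

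Cells build cholesterol from acetyl-CoA through mevalonate and the isoprenoid diphosphates. Farnesyl diphosphate is the branch point, from which squalene synthase commits carbon to sterols while other enzymes make longer isoprenoids for protein prenylation, dolichol and ubiquinone. When endoplasmic reticulum cholesterol falls, SCAP escorts the SREBP transcription factors to the Golgi for cleavage, and the released fragments switch on nearly every enzyme of the route. When cholesterol is plentiful, INSIG proteins hold SCAP back, and oxysterols activate the LXR receptors, which induce the efflux pump ABCA1. In beta cells the membrane cholesterol content is known to affect insulin granules and exocytosis.

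The libraries held 7186462 to 9163253 counts in mutants and 6092010 to 7375376 in controls. Pdx1 had 4.18 to 19.9 CPM (library-size-scaled counts, with TMM factors) in mutants and 23.8 to 36.0 CPM in controls, and every mutant lay below every control (log2 fold change -1.18 ± 0.40 SE, edgeR quasi-likelihood adjusted p = 0.0461, lost in 6 of 9 fits without 1 library, namely mutants 1 and 3 and any control, highest 0.113). Marker genes of several cell types differed between the groups. Islet hormone genes (Gcg, Iapp, Ins1, Ins2, Ppy, Pyy and Sst) held 7.99%, 0.0691%, 1.21%, 4.70% and 7.27% of counts in mutants 1 to 5, against 16.9% to 21.0% in controls. Of 32 acinar markers, genes of the enzyme-secreting exocrine cells, 30 were higher and 0 lower in mutants by the test given below, their summed level was 154621 to 380755 CPM in mutants and 26291 to 61362 CPM in controls, and none was at 0 throughout. Of 15 tested ductal markers, 8 were higher (53.3%, where 20.6% of all genes were) and 1 was lower by the same test. The 16 ductal markers found summed to 17966 to 30536 CPM in mutants and 4802 to 13595 CPM in controls. Mutants 2 and 3 had the lowest hormone shares and the highest acinar sums. In such bulk RNA, fewer cells of a type and less RNA per cell cannot be told apart, and the part of these marker differences in the sterol gene results was not tested.

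Sterol genes were lower in mutants at several separate steps, and no member rose. By edgeR's quasi-likelihood test with Benjamini-Hochberg adjustment over all 12402 genes tested, 6 of the 27 members fell (22.2%), where 11.8% of all genes fell, and 0 rose, where 20.6% of all genes rose. The members that fell were Pmvk, Sqle, Lss, Dhcr7, Srebf1 and Stard4. In either direction the members' share, 22.2%, lay below the 32.4% of all genes called. The median log2 fold change (mutant over control) was -0.41 over the 27 members and 0.04 over all genes tested. In 7 members every mutant library lay below every control, or 25.9% against 14.7% of all genes, and in 0 members above, against 18.5% of all genes. An unadjusted p under 0.05 was reached by 13 of the 27 members (48.1%), close to the 46.5% of all genes tested. DESeq2 called 11 members lower and 0 higher, where it called 20.6% of all genes lower and 20.3% higher. Limma-voom called 10 members lower and 1 higher (Npc1), where it called 18.5% of all genes lower and 24.3% higher. The scaling of libraries moved the balance of calls over all genes, of which 63.6% were higher in mutants with TMM scaling, 51.8% with RLE scaling in edgeR and 49.6% in DESeq2. RLE scaling moved the median of all genes by -0.10 on the log2 scale, and with it 9 members fell and 0 rose, where 16.2% of all genes fell and 17.4% rose.

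**Figure D1:**
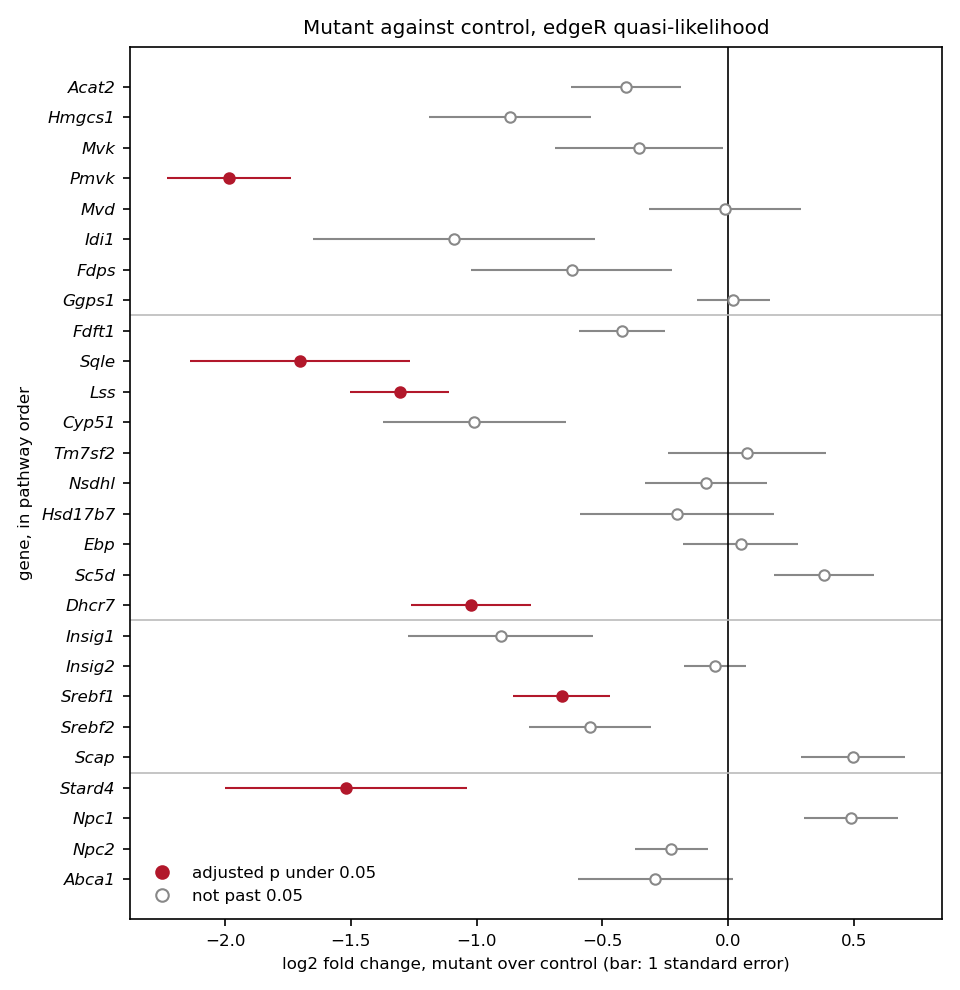
Log2 fold change of each sterol gene, mutant over control, on the x axis with bars of 1 standard error, and genes in pathway order on the y axis (lines separate the steps from acetyl-CoA to isoprenoids, from squalene to cholesterol, sterol sensing and sterol transport). The 6 filled points passed an adjusted p of 0.05, and all 6 lie below 0, from -0.66 (Srebf1) to -1.98 (Pmvk).

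In the steps from acetyl-CoA to isoprenoid diphosphates, 1 of 8 enzymes fell (12.5%, near the 11.8% of all genes) and 0 rose. It was Pmvk, phosphomevalonate kinase, which adds the second phosphate to mevalonate (GRCm38 chr3:89454541-89469014). Pmvk had 26.6, 12.3, 13.5, 24.6 and 21.7 CPM in mutants 1 to 5, against 67.3, 93.5, 72.8 and 79.1 CPM in controls 1 to 4. Every mutant was below every control, with a wide gap between the highest mutant and the lowest control. The difference was 3.96-fold, -1.98 ± 0.25 (SE) as log2 fold change (edgeR adjusted p = 0.00165). It passed in each of the 9 fits that left out 1 library (highest edgeR adjusted p = 0.00855).

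The enzymes before and after Pmvk had smaller or less regular differences. Hmgcs1, cytosolic HMG-CoA synthase, had 95.2, 33.3, 41.3, 50.5 and 100.2 CPM in mutants 1 to 5, against 128, 106, 131 and 104 CPM in controls 1 to 4. The groups did not overlap, yet mutants 1 and 5 came close to the lowest control. Its log2 fold change of -0.87 did not pass with TMM scaling (standard error 0.32, edgeR adjusted p = 0.0627). It passed with all libraries in edgeR with RLE scaling (edgeR adjusted p = 0.0423), in DESeq2 (DESeq2 adjusted p = 0.0180) and in limma-voom (limma-voom adjusted p = 0.0231), and in edgeR without mutant 1 or mutant 5. Idi1, isopentenyl diphosphate isomerase, was the most uneven member, with 67.1, 4.72, 14.9, 31.7 and 36.7 CPM in mutants 1 to 5, against 55.8, 59.7, 84.2 and 64.8 CPM in controls 1 to 4. Mutant 1 lay within the control range and mutant 2 was 14.2-fold below mutant 1, and the log2 fold change of -1.09 carried a standard error of 0.56 (edgeR adjusted p = 0.153). It passed in edgeR without mutant 1 (edgeR adjusted p = 0.0378) and in limma-voom with all libraries (limma-voom adjusted p = 0.0316).

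Fdps, farnesyl diphosphate synthase, ranged from 56.5 to 220.0 CPM in mutants and from 127 to 286 CPM in controls, with a log2 fold change of -0.62 (standard error 0.40, edgeR adjusted p = 0.244). Its highest mutant, mutant 4, exceeded 3 of the controls. Acat2, the cytosolic thiolase that joins acetyl-CoA units, and Mvk, mevalonate kinase, missed the threshold at log2 fold changes of -0.41 and -0.36 (edgeR adjusted p = 0.171 and 0.422). Mvd, mevalonate diphosphate decarboxylase, averaged 10.9 ± 2.23 CPM over the 5 mutants and 11.0 ± 3.98 CPM over the 4 controls (SD). Ggps1, which makes geranylgeranyl diphosphate on the non-sterol branch, averaged 64.8 ± 6.93 CPM in mutants and 63.9 ± 9.37 CPM in controls, 0.02 ± 0.14 (SE) as log2 fold change (edgeR adjusted p = 0.918).

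In the sterol branch from squalene to cholesterol, 3 of 10 enzymes fell (30.0%, against 11.8% of all genes) and 0 rose. They were the pair of enzymes that oxidise and cyclise squalene and a reductase at the end of the route. Sqle, squalene epoxidase, a rate-limiting step of the sterol branch (GRCm38 chr15:59315092-59331193), had 204, 31.4, 59.0, 93.5 and 122 CPM in mutants 1 to 5, against 395, 305, 309 and 320.3 CPM in controls 1 to 4. Mutant 1 was nearest to the controls and mutant 2 farthest. The fitted log2 change was -1.70 ± 0.44 (SE) (3.26-fold lower, edgeR adjusted p = 0.0170), and it passed in all 9 fits that left out 1 library.

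Lss, lanosterol synthase, which closes the sterol rings (GRCm38 chr10:76531565-76557139), was lower in every mutant. It had 21.3, 11.2, 14.3, 12.0 and 12.8 CPM in mutants 1 to 5, against 37.7, 32.2, 37.1 and 34.8 CPM in controls 1 to 4. The fitted log2 change was -1.31 ± 0.20 (SE) (2.47-fold lower, edgeR adjusted p = 0.00261). Dhcr7, a reductase of the last steps whose loss in humans causes Smith-Lemli-Opitz syndrome, had 12.0, 5.80, 9.41, 7.90 and 10.7 CPM in mutants 1 to 5, against 24.5, 16.5, 17.9 and 15.7 CPM in controls 1 to 4. All 5 mutants lay below the lowest control, at -1.02 ± 0.24 (SE) as log2 fold change (2.03-fold lower, edgeR adjusted p = 0.0119). Lss and Dhcr7 passed in all 9 fits that left out 1 library.

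Cyp51, the lanosterol demethylase, stood just short of the threshold. It had 72.4, 16.2, 28.5, 52.8 and 54.9 CPM in mutants 1 to 5, against 99.8, 77.6, 100.6 and 84.3 CPM in controls 1 to 4. The groups did not overlap, with a log2 fold change of -1.01 ± 0.36 (SE) (edgeR adjusted p = 0.0561). It passed with all libraries in DESeq2 (DESeq2 adjusted p = 0.0144), in limma-voom (limma-voom adjusted p = 0.0124) and in edgeR with RLE scaling (edgeR adjusted p = 0.0400), with TMM factors set without acinar and hormone genes (edgeR adjusted p = 0.0465) or with no filter (edgeR adjusted p = 0.0495), and also without mutant 1 or mutant 2. Fdft1, squalene synthase, had -0.42 ± 0.17 (SE) as log2 fold change (edgeR adjusted p = 0.0797). It passed in DESeq2 (DESeq2 adjusted p = 0.0217), in limma-voom (limma-voom adjusted p = 0.0327), in edgeR with RLE scaling (edgeR adjusted p = 0.0416), and without mutant 1 or control 2.

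Of the enzymes between lanosterol demethylation and the last steps, 4 differed little in their means. Tm7sf2 (a sterol reductase), Nsdhl (a sterol dehydrogenase and decarboxylase), Hsd17b7 (a ketosteroid reductase) and Ebp (a sterol isomerase) had log2 fold changes between -0.20 and 0.08, and none passed. These values do not show that the genes were the same in both groups, since the standard errors ran from 0.23 to 0.39. Hsd17b7 had 24.7, 4.99, 9.56, 19.5 and 15.7 CPM in mutants 1 to 5, against 15.3, 17.1, 20.4 and 15.8 CPM in controls 1 to 4. Mutant 1 was above all controls while mutants 2 and 3 were below them. Sc5d, a sterol desaturase, averaged 56.9 ± 14.5 CPM in mutants and 43.6 ± 4.97 CPM in controls, higher than every control in 4 of 5 mutants (log2 fold change 0.38 ± 0.20 SE, edgeR adjusted p = 0.157, passing without mutant 5).

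Msmo1, the sterol methyl oxidase, is carried in the table under its older symbol Sc4mol and is therefore not counted among the members. That row had 183, 40.8, 66.7, 95.8 and 124 CPM in mutants 1 to 5, against 241, 228, 252 and 187 CPM in controls 1 to 4. The groups did not overlap, and the row passed with a log2 fold change of -1.15 ± 0.36 (SE) (edgeR adjusted p = 0.0360). It failed in 7 of 9 fits without 1 library (mutants 3 to 5 or any control, highest edgeR adjusted p = 0.0812).

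**Figure D2:**
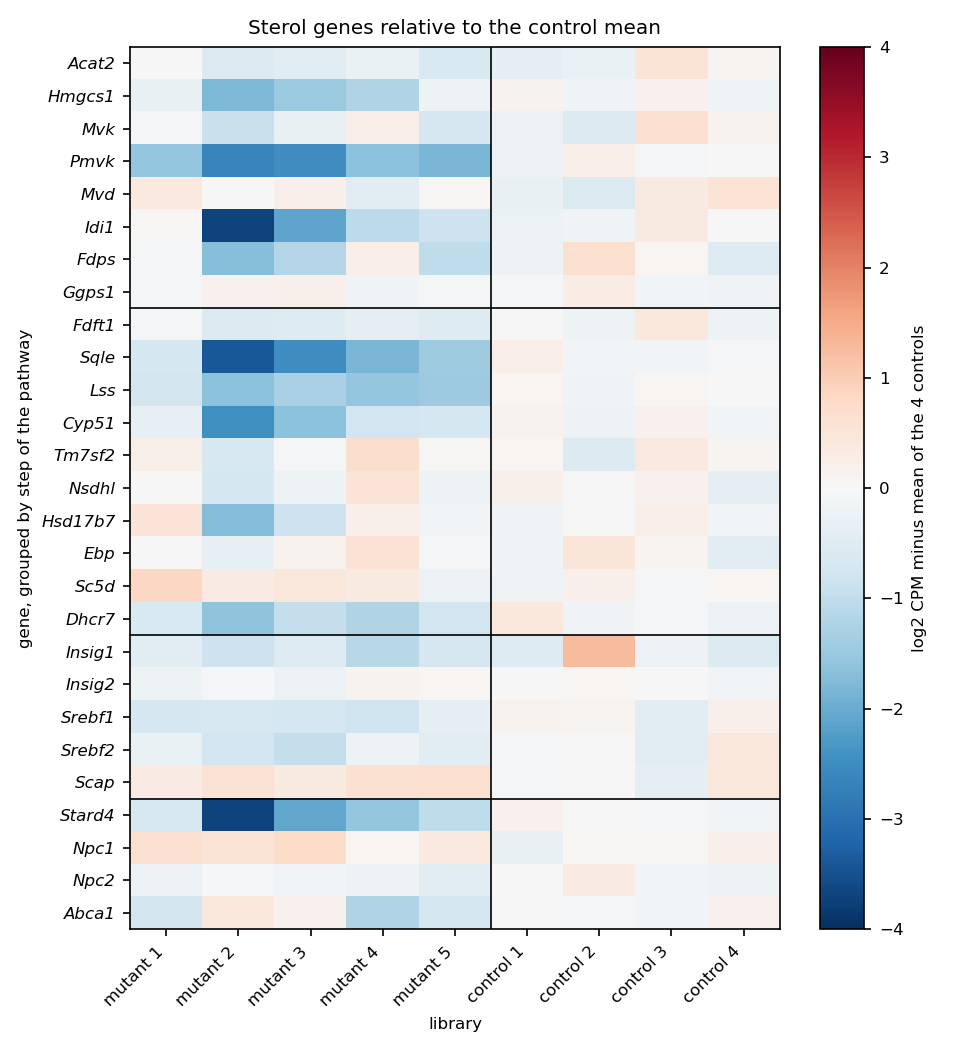
Log2 CPM of each sterol gene (y axis, in pathway order) in each library (x axis, mutants left, controls right) minus the mean of the 4 controls, with blue below and red above that mean. Pmvk, Sqle, Lss and Dhcr7 are blue in all 5 mutants, and Idi1, Sqle and Stard4 are darkest in mutant 2, where Idi1 lies 3.72 below the control mean.

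The promoter sequences of RefSeq for GRCm38.p6, which run from 250 bases before to 50 bases after a transcript start, were read for 22 of the 27 members. They were searched on both strands for a sterol regulatory element core (TCACNCCAC), the CCAAT box of the SREBP partner NF-Y (CCAAT), the GC box of Sp1 (GGGCGG) and an E-box (CACGTG). None of these motifs contains another. Fdps, Fdft1, Npc1, Sqle and Stard4 had no promoter entry and were not searched. The element core was found in 1 of the 22 members, Hmgcs1, or 4.55%, against 1.46% of the 15725 genes of the table with a promoter entry. Those genes were counted whether or not they passed the filter on low counts, which all 27 members passed. The CCAAT box was found in 19 members (86.4%, against 42.4% of genes), the GC box in 20 (90.9%, against 50.5%) and the E-box in 6 (27.3%, against 9.27%). A match is a description of letters and not a binding site, and genes with several promoter windows counted once if any window held the motif. Shown are Hmgcs1, which holds the element core and several CCAAT boxes, and Lss and Cyp51, neighbours in the route with non-overlapping groups and a single CCAAT box each. Capitals mark the element core and the CCAAT box, which reads as ATTGG on the opposite strand.
Hmgcs1 (chr13:119690101-119690400, plus strand): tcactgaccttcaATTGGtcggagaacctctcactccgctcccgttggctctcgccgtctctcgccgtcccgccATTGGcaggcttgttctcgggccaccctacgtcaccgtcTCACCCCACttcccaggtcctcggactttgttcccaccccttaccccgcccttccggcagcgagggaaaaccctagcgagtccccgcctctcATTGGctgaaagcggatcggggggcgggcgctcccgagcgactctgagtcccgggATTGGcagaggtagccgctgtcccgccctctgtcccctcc
Lss (chr10:76531355-76531654, plus strand): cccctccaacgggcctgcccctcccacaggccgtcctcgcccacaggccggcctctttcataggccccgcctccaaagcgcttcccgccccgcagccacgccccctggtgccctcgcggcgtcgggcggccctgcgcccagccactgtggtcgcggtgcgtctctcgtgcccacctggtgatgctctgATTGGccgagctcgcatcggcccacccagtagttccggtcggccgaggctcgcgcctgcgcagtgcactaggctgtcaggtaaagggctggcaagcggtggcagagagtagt
Cyp51 (chr5:4104648-4104947, minus strand): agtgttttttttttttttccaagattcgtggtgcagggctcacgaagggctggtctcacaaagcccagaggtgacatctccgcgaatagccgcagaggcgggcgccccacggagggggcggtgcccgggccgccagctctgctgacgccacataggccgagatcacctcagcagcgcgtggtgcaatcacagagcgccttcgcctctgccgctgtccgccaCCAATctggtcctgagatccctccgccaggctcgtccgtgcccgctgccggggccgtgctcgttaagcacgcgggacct
In the Hmgcs1 window the element core starts at position -137 from the transcript start, and 4 CCAAT boxes were found. No match in a window says only that these letters are absent from it.

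Among the 5 regulators of sterol sensing, 1 fell and 0 rose, too few to set against the share of all genes. It was Srebf1, which encodes the SREBP-1 proteins that act mainly on fatty acid genes. Srebf1 had 8.96, 9.17, 8.65, 8.05 and 11.1 CPM in mutants 1 to 5, against 15.9, 15.5, 10.3 and 16.5 CPM in controls 1 to 4. Control 3 stood apart below the other controls and under mutant 5, so the groups overlapped. The fitted log2 change was -0.66 ± 0.19 (SE) (1.58-fold lower, edgeR adjusted p = 0.0270), and it no longer passed once mutant 3, control 1 or control 4 was removed (edgeR adjusted p up to 0.0773), nor without mutants 2 and 3 together (edgeR adjusted p = 0.0723).

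Srebf2, whose product is the main activator of cholesterol synthesis genes, had 9.69, 6.87, 5.92, 10.2 and 8.56 CPM in mutants 1 to 5, against 11.5, 12.0, 8.55 and 16.3 CPM in controls 1 to 4. Its log2 fold change of -0.55 was close to that of Srebf1 but did not pass (standard error 0.24, edgeR adjusted p = 0.105), while DESeq2 called it (DESeq2 adjusted p = 0.0442). Scap, the escort protein gene, had 11.5 ± 1.18 CPM in mutants and 8.16 ± 2.06 CPM in controls and a log2 fold change of 0.50 that did not pass (standard error 0.21, edgeR adjusted p = 0.0881, passing without control 4).

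The INSIG genes differed from each other in their spread. Insig1, itself a classical SREBP target, had 66.4, 49.9, 62.7, 41.0 and 55.5 CPM in mutants 1 to 5, against 62.5, 213, 76.0 and 61.2 CPM in controls 1 to 4. Control 2 stood far above the rest, and the other libraries of both groups overlapped. The fitted log2 change was -0.90 ± 0.37 (SE) (edgeR adjusted p = 0.0817; DESeq2 adjusted p = 0.0284), and without control 2 it was -0.36 (edgeR adjusted p = 0.139). Insig2, which is under separate control from Insig1, averaged 89.5 ± 10.2 CPM over the 5 mutants and 92.7 ± 4.96 CPM over the 4 controls (SD), -0.05 ± 0.12 (SE) as log2 fold change (edgeR adjusted p = 0.771).

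Of the 4 genes of sterol transport, likewise few, 1 fell and 0 rose. Stard4, a soluble carrier that moves cholesterol between membranes and an SREBP target, had 9.81, 0.944, 3.49, 5.12 and 7.49 CPM in mutants 1 to 5, against 17.5, 15.2, 15.1 and 14.2 CPM in controls 1 to 4. Every mutant was below every control, and mutant 2, with 7 counts, was lowest. The fitted log2 change was -1.52 ± 0.48 (SE) (2.87-fold lower, edgeR adjusted p = 0.0364). It failed in 6 of 9 fits without 1 library (mutant 3 or 4, or any control, highest edgeR adjusted p = 0.0865) and held without mutants 2 and 3 together (log2 fold change -1.10, edgeR adjusted p = 0.0202).

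Npc1 and Npc2, which together export cholesterol from lysosomes, were not lower in step. Npc1 averaged 17.8 ± 3.06 CPM over the 5 mutants and 12.7 ± 1.88 CPM over the 4 controls (SD), above every control in 4 of 5 mutants, at 0.49 ± 0.19 (SE) as log2 fold change that did not pass (edgeR adjusted p = 0.0671, passing in edgeR without mutant 4 and in limma-voom with an adjusted p of 0.0430). Npc2 averaged 171 ± 16.1 CPM in mutants and 200.5 ± 34.1 CPM in controls, at a log2 fold change of -0.23 (standard error 0.15, edgeR adjusted p = 0.246).

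Abca1, the LXR-induced efflux pump, split the mutant libraries. It had 33.7, 74.4, 63.7, 24.1 and 34.3 CPM in mutants 1 to 5, against 56.9, 52.5, 52.2 and 63.3 CPM in controls 1 to 4. Mutants 2 and 3, which had the lowest hormone shares, were above all controls, and mutants 1, 4 and 5 were below all of them. With all libraries the fitted log2 change was -0.29 ± 0.31 (SE) (edgeR adjusted p = 0.486). Without mutants 2 and 3 it was -0.93 and passed (edgeR adjusted p = 0.0125), in a fit that called 9.78% of all genes lower. Those are the mutants above all controls, so a lower value follows from leaving them out. Macrophages also express Abca1, and of 8 tested macrophage markers 0 rose and 0 fell. The 9 macrophage markers found summed to 8.76 to 99.7 CPM in mutants and 38.8 to 74.4 CPM in controls. That sum was highest in mutant 1 and lowest in mutant 2. The part of macrophages in the Abca1 values was not tested.

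**Figure D3:**
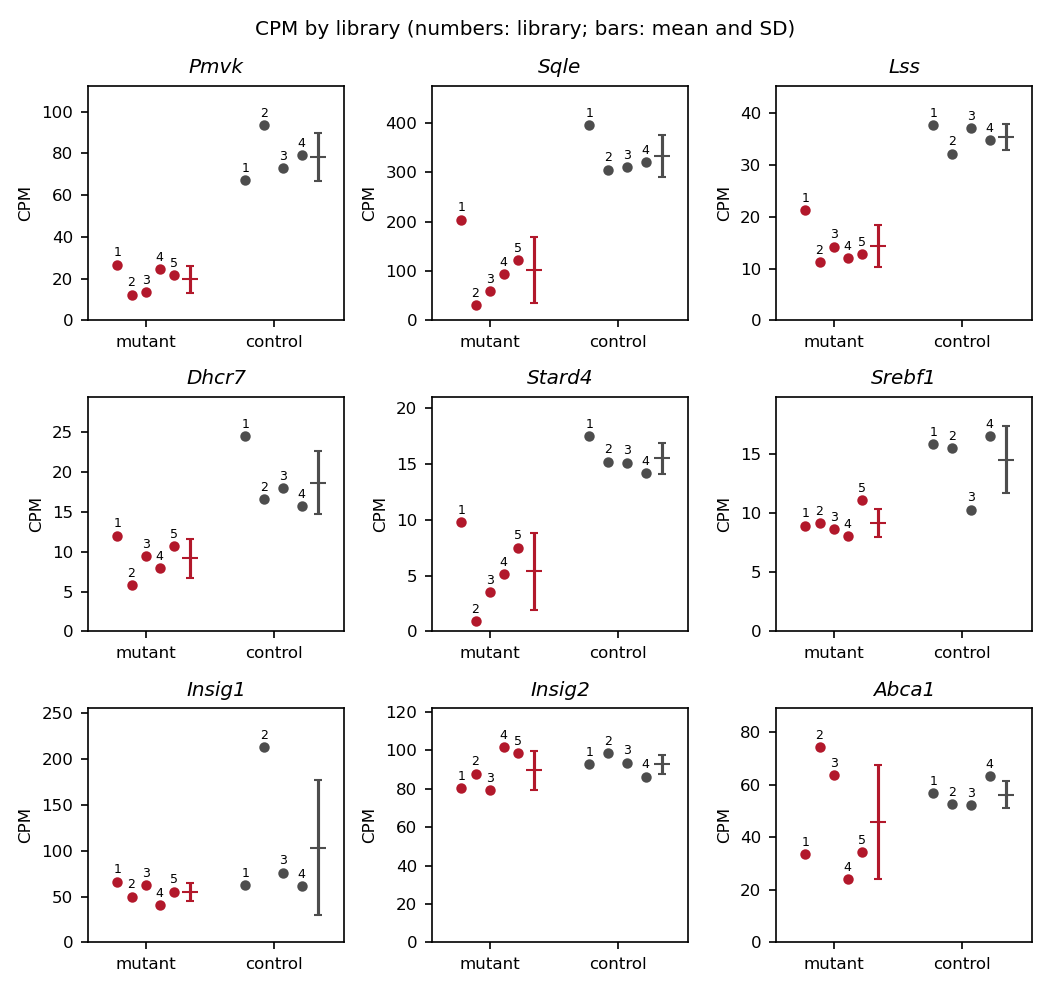
CPM of 9 sterol genes in each library (y axes start at 0), mutants left and controls right, with library numbers over the points and bars of mean and SD. Pmvk, Sqle, Lss, Dhcr7 and Stard4 separate the groups, Insig1 has a single high control at 213 CPM, and Abca1 divides the mutants into 2 above and 3 below the controls.

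Levels were compared between genes per kilobase of exon, with exon lengths from GENCODE M21. Fdps stood highest in both groups, at 85.7 CPM per kilobase in mutants and 132 in controls. Of its 1453 exon bases, 1124 are shared with those of Gm43738, whose reads may not be told apart. Sqle was at rank 3 in mutants (37.0 ± 24.1 CPM per kilobase) and rank 2 in controls (120.5 ± 15.3), and Npc2 at rank 2 in mutants (52.0 ± 4.88) and rank 3 in controls (60.8 ± 10.3). In controls Fdps and Sqle did not differ beyond their spread, while Sqle and Npc2 did, and in mutants neither Fdps and Npc2 nor Npc2 and Sqle differed beyond the spread. Pmvk was at rank 12 of 27 in mutants, at 11.5 CPM per kilobase, and at rank 4 in controls, at 45.6. Insig2 was at rank 4 in mutants, at 30.3 CPM per kilobase, and at rank 8 in controls, at 31.4. Srebf1, Srebf2 and Scap lay between 1.63 and 2.73 CPM per kilobase in mutants and between 1.93 and 3.39 in controls, where the lowest members were within each other's spread. Stard4 was lowest in mutants, at 1.03 CPM per kilobase, against 2.98 in controls.

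**Figure D4:**
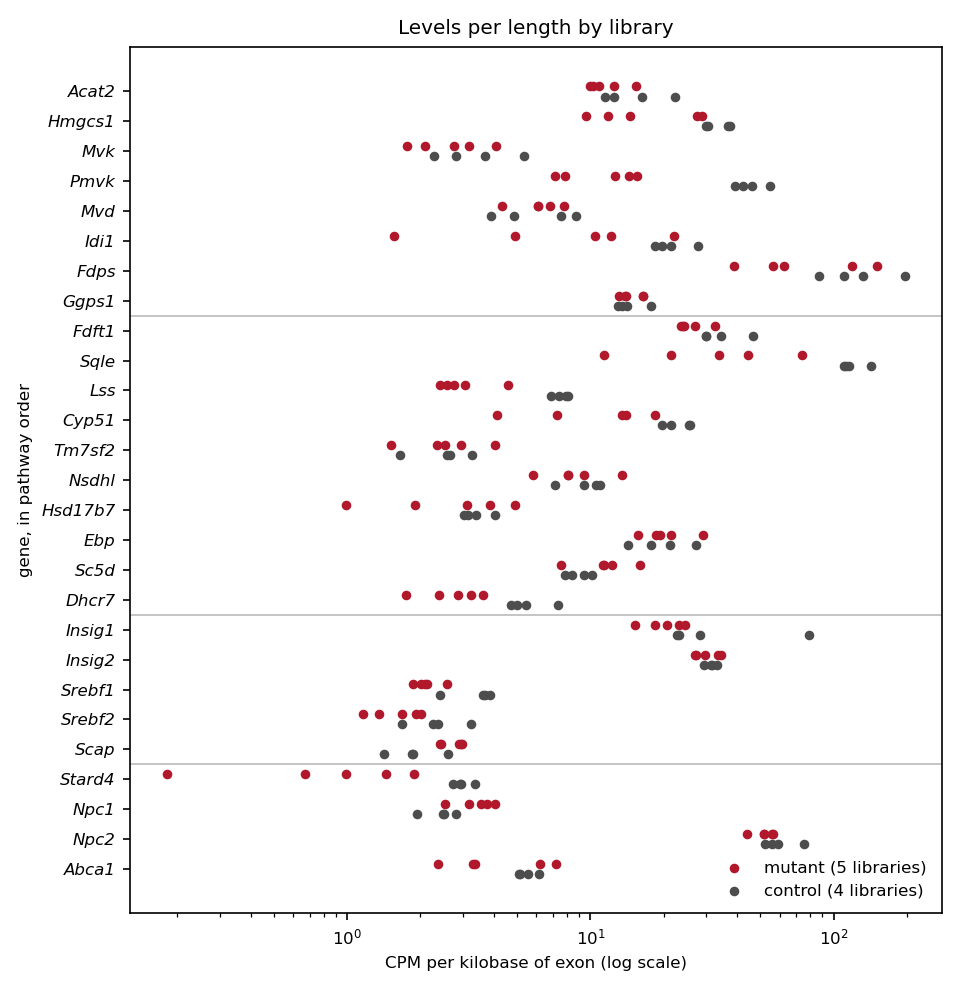
CPM per kilobase of exon (x axis, log scale) of each sterol gene in pathway order (y axis), with each mutant library as a red point over each control library as a grey point. Fdps, Sqle and Npc2 lie at the high end in controls, and Stard4 reaches the lowest value in mutant 2.

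Ratios of gene pairs within a library do not depend on library scaling, and 4 were tested by exact two-sided permutation over the libraries, with a smallest possible p of 0.0159. None passed Benjamini-Hochberg adjustment over the 4. That adjustment could not let a lone ratio pass, even at that smallest p, so failing it does not show equal ratios. The log2 ratio of Npc1 to Npc2 averaged -3.28 ± 0.25 over the 5 mutants and -3.98 ± 0.34 over the 4 controls (SD), above every control in 4 of 5 mutants (exact p = 0.0317, adjusted p = 0.127). The log2 ratio of Ggps1 to Fdft1, non-sterol against sterol branch, averaged -0.58 ± 0.30 in mutants and -1.01 ± 0.42 in controls (exact p = 0.127, adjusted p = 0.190). The log2 ratio of Insig1 to Insig2 was -0.71 ± 0.42 in mutants and -0.06 ± 0.79 in controls (exact p = 0.143, adjusted p = 0.190), and that of Srebf1 to Srebf2 was 0.17 ± 0.38 in mutants and 0.28 ± 0.19 in controls (exact p = 0.651, adjusted p = 0.651).

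The mutant libraries differed in how far the sterol genes lay from the controls. The median member's difference from the control mean was -0.09, -0.69, -0.50, -0.27 and -0.45 on the log2 CPM scale in mutants 1 to 5, while that of all genes tested was between 0.03 and 0.07. In mutants 1 to 5, 11, 18, 15, 13 and 16 of the 27 members were under the lowest control, or 40.7%, 66.7%, 55.6%, 48.1% and 59.3%, against 26.8%, 36.8%, 33.8%, 32.0% and 29.4% of all genes tested. Mutant 2 had the most members under the controls and mutant 1 the fewest, as was so for all genes tested. Mutant 2 also had the lowest hormone share (0.0691%) and mutant 1 the highest (7.99%). Mutant 5, with a hormone share of 7.27%, had more members under the controls than mutants 3 and 4, with 1.21% and 4.70%. The relation of these counts to the hormone shares was not tested.

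Results that rest on mutants 2 and 3 were refitted without them. Then 9.78% of all genes fell and 10.8% rose, while 7 members fell and 0 rose. Of these, 5 were among the 6 called with all libraries (Pmvk, Sqle, Lss, Dhcr7 and Stard4), and Cyp51 and Abca1 were added. For Abca1, the mutants left out were the ones above all controls. The log2 fold change was -1.74 for Pmvk, -1.30 for Sqle, -1.25 for Lss and -0.92 for Dhcr7 (edgeR adjusted p = 0.00211, 0.0150, 0.0102 and 0.0334). A second fit carried as a covariate the endocrine score, the mean log2 CPM of 36 genes of granules and exocytosis, of whose variance the group accounted for 52.8%. In it 2 members were lower, Pmvk (log2 fold change -1.37, edgeR adjusted p = 0.0191) and Abca1 (-1.22, edgeR adjusted p = 0.0498), and 0 were higher, where 0.347% of all genes were lower and 2.57% higher. Sqle, Lss, Dhcr7, Srebf1 and Stard4 had log2 fold changes of -0.53, -1.0, -0.54, -0.60 and -0.05 there and did not pass (edgeR adjusted p = 0.0660 for Lss and 0.264 to 0.955 for the others). Mutants 2 and 3, which lay above all controls in Abca1, had the lowest endocrine scores (1.92 and 3.87). Pdx1 itself had a log2 fold change of -0.01 in the fit with that score (edgeR adjusted p = 0.994). The acinar score could not be told apart from the group, which accounted for 91.8% of its variance. With it as a covariate in edgeR 0 of 27 members passed, with 1 at an unadjusted p under 0.05.

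Other genes of sterol and isoprenoid metabolism, in 6 lists of 74 genes, were more often higher than lower in mutants, as were all genes. Of 71 tested, 19 rose (26.8%, against 20.6% of all genes) and 7 fell (9.86%, against 11.8% of all genes), with a median log2 fold change of 0.23. Among partners of sterol synthesis 4 of 8 rose, where 20.6% of all genes rose, and 0 fell. They included Tmem97, a sterol-responsive membrane protein that binds NPC1, with 598, 1522, 1390, 650.0 and 663 CPM in mutants 1 to 5, against 166, 167, 223 and 114 CPM in controls 1 to 4. Every mutant was above every control (log2 fold change 2.53 ± 0.37 SE, edgeR adjusted p = 0.00246). Cyb5, the electron carrier cytochrome b5, and Pgrmc1, a haem protein that binds sterol-metabolising P450 enzymes, rose by 1.64 and 0.67 on the log2 scale (edgeR adjusted p = 0.00379 and 0.0149).

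Of 10 genes of SREBP processing and sterol-sensed degradation 1 rose (10.0%, against 20.6% of all genes) and 1 fell (10.0%, against 11.8%). Aup1, a lipid droplet protein of endoplasmic reticulum degradation, rose by 1.48, and Rnf145, a sterol-responsive ubiquitin ligase, fell by 1.07 on the log2 scale (edgeR adjusted p = 0.00193 and 0.00384). The protease gene Mbtps2, which makes the second SREBP cut, had a log2 fold change of 0.37 that did not pass (edgeR adjusted p = 0.179). Of 14 genes of isoprenoid use 3 rose (21.4%) and 1 fell (7.14%), shares near those of all genes. Rce1 and Rabggta, which act in protein prenylation, rose by 1.01 and 1.02, and Dhdds, of dolichol synthesis, fell by 0.55 on the log2 scale (edgeR adjusted p = 0.00945, 0.0102 and 0.0312). The Dhdds call was lost without mutant 3 or 5 or control 1 or 4 (highest edgeR adjusted p = 0.0720).

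Of 15 genes of cholesterol esters and transfer 4 rose (26.7%) and 2 fell (13.3%), also near those of all genes. Soat2, which esterifies cholesterol, had 8.48, 18.1, 19.1, 13.3 and 10.3 CPM in mutants 1 to 5, against 2.73, 2.34, 3.04 and 2.12 CPM in controls 1 to 4. No mutant overlapped a control, at 2.43 ± 0.30 (SE) as log2 fold change (edgeR adjusted p = 0.00165). Osbpl9, an oxysterol-binding protein family gene, rose by 0.95, and Gramd1c, of a family of membrane-contact sterol carriers, fell by 1.12 on the log2 scale (edgeR adjusted p = 0.00232 and 0.00623). Of 11 tested LXR and oxysterol genes 5 rose (45.5%, against 20.6% of all genes) and 0 fell. The LXR targets Abcg1 and Mylip of this list, with values given further below, did not rise, nor did the member Abca1. The LXR genes Nr1h2 and Nr1h3 rose by 1.10 and 1.36 and their partner Rxra by 0.63 on the log2 scale (edgeR adjusted p = 0.00379, 0.00758 and 0.0328). The Rxra call was lost in 7 of 9 fits without 1 library, all but those without mutant 1 or control 1 (highest edgeR adjusted p = 0.113).

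Of 13 fatty acid genes known as SREBP-1 targets 2 rose (15.4%, against 20.6% of all genes) and 3 fell (23.1%, against 11.8% of all genes). Acly, which supplies cytosolic acetyl-CoA to both fatty acid and cholesterol synthesis, had 1340.4, 149, 331, 734 and 841 CPM in mutants 1 to 5, against 3079, 2317, 2408 and 3147 CPM in controls 1 to 4. All mutants were below all controls, with mutant 2 lowest (log2 fold change -2.01 ± 0.52 SE, edgeR adjusted p = 0.0175). The stearoyl-CoA desaturase genes moved in opposite directions, Scd1 with a log2 fold change of 2.71 and Scd2 with -1.16 (edgeR adjusted p = 0.00623 and 0.00751). They are close paralogs that may share reads.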

How the data were processed

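Polyadenylated RNA of 9 islet libraries was measured. The authors deposited a table of raw counts, whole numbers per gene symbol. Tools listed by the submitters' processing notes, with no role given, include STAR, RSEM, Bowtie2, HOMER, DESeq2 and R 4.1.0, and the listed build is mm10. The aligner, counter, annotation and strand setting of this table are not given in the sources used here. GENCODE M21 places exon bases of 10 members on those of another gene (Lss and Srebf1 among those that fell, Fdft1 with Ctsb, Fdps with Gm43738), whose reads may not be told apart. Counts carry no molecular identifiers.

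Groups came from the sample titles. No 2 libraries agreed within sampling noise. Mutant was compared with control by edgeR 4.0.16 (R 4.3.3), glmQLFTest after filterByExpr and TMM scaling, threshold 0.05, two-sided. The standard error is the unshrunken log2 fold change over the square root of F. Log2 CPM used a prior count of 2, and ratios 0.5. Alternatives were RLE scaling, TMM without acinar and hormone genes, no filter, CPM of at least 1 in 4 libraries, DESeq2 1.42.0, limma-voom (limma 3.58.1), acinar or endocrine scores as covariates, a replicate block and left-out libraries. Limma-voom was run with quality weights, which give more variable libraries less weight. Only the main edgeR fit was also run on simulated data, and its outcome is not given here. Named genes are all members, Pdx1 and up to 3 genes of lowest p per further list. 3 list symbols were found under older names. Members and lists were chosen with earlier results of these data known.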

Additional observations from a re-analysis of the deposited data

Results flagged for a closer look

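A single library standing far from the rest of its group was looked for in the 62 sets of values given by the 27 members and 4 ratios in both groups, and chance marks about 1 in 20 such sets. There were 2 such cases. In controls, Srebf1 was at 3.40 log2 CPM in control 3, against 3.98 to 4.07 in the other controls, and that gap was 0.864 of the group's range, beyond Dixon's critical value for 4 samples. The log2 ratio of Insig1 to Insig2 was 1.11 in control 2, against -0.57 to -0.30 in the other controls, a gap of 0.840 of the range. Without control 3 the log2 fold change of Srebf1 was -0.80 and passed (edgeR adjusted p = 0.0149).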

How the results depend on the processing

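The counts of genes that passed (edgeR, adjusted p under 0.05) were 0 higher and 6 lower of 27 members, 19 higher and 7 lower of 71 other pathway genes, and 2560 higher and 1462 lower of all genes. DESeq2 gave 11 members and 2555 genes lower, and limma-voom 1 member higher, 10 members lower and 2294 genes lower. With the endocrine score as a covariate there were 2 members lower, 4 other pathway genes higher and 0 lower, and 319 genes higher and 43 lower. With the acinar score the counts were 0 throughout, with 1 member, 2 other pathway genes and 537 of all genes at an unadjusted p under 0.05. In that fit the log2 fold changes turned to 1.48 for Sqle, 0.33 for Dhcr7, 0.16 for Srebf1, 1.54 for Stard4 and 0.78 for Pdx1 (edgeR adjusted p = 0.896 to 0.984). Those of Pmvk and Lss stayed negative, at -0.96 and -0.26 (edgeR adjusted p = 0.896 and 0.955). The acinar score and the group are nearly the same split of the libraries, and the cause was not tested. Without mutants 2 and 3, 1355 genes were higher. Leaving out 1 library gave 0 to 1 members higher (Npc1 without mutant 4, Sc5d without mutant 5, Scap without control 4), 4 to 10 lower, 12 to 17 other pathway genes higher and 4 to 9 lower, and 1579 to 2702 genes higher and 699 to 1865 lower.

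Same-numbered libraries did not deviate together (correlations from -0.05 to 0.18, 1 of 4 over 0.1), so the numbers were not taken as pairs. A replicate block, in which mutant 5 has no partner, gave 5 members lower, 12 other pathway genes higher, and 1658 genes higher and 774 lower. Of the members, 4 were shared with the fit without the block, Hmgcs1 was added, and Srebf1 and Stard4 did not pass. The blocked log2 ratio differences were -0.16 for Srebf1 to Srebf2 and -0.62 for Insig1 to Insig2. They were 0.43 for Ggps1 to Fdft1 and 0.66 for Npc1 to Npc2. A permutation test over so few pairs cannot reach a p under 0.05, so none could pass.

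Among members that did not pass, Ggps1, Tm7sf2 and Ebp changed sign with RLE scaling. No ratio passed under any alternative, but these tests had little or no room to pass. Without mutants 2 and 3, and with the replicate block, too few libraries remained to reach a p under 0.05. With a single library left out, a lone ratio could not pass the adjustment. Depth limits the members with few counts, such as Stard4 with 7 counts in mutant 2 and Tm7sf2 with 19 in mutant 2.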

Other observations

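Control 2, in which Insig1 was high, stood apart from the other controls over all genes, with a chi-square per degree of freedom of 58.6 to 87.4 against them, where controls 1, 3 and 4 had 18.1 to 22.5 among themselves. Several of the sterol genes in which it differed are given here, chosen after their values were seen. The sterol efflux gene Abcg1, a classical LXR target, had 273, 365, 394, 136 and 178 CPM in mutants 1 to 5, against 309, 1104, 319 and 297 CPM in controls 1 to 4. Mylip, an LXR-induced ubiquitin ligase, had 6.29 to 13.3 CPM in mutants and 22.4 CPM in control 2, where the other controls had 9.61 to 12.4 CPM. Lbr, whose product can replace Tm7sf2 in sterol reduction, had 33.3 to 44.1 CPM in mutants and 85.5 CPM in control 2, with 31.9 to 39.7 CPM in the other controls. Abca1, by contrast, was 52.5 CPM in control 2, inside the range of the other controls. Fdps was also highest in control 2, at 286 CPM against 127 to 193 CPM in the other controls.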
